A study of Mus musculus with 8 samples.

Results

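The genes that guide migrating neuroblasts were examined in periventricular brain tissue of mice with and without *Lrig1*. They are 10 genes chosen by name for their roles in migration, with earlier results of these data known: the ligands *Slit1* and *Slit2*, the receptors *Robo1* and *Robo2*, the Eph receptors *Epha4* and *Ephb2*, the ephrin *Efnb2*, the adhesion molecule *Ncam1*, and the polysialyltransferases *St8sia2* and *St8sia4*. All 10 were found among the 54307 gene rows of the data, and all 10 were among the 17669 genes that passed a filter on low counts.

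Neuroblasts born in the ventricular-subventricular zone (V-SVZ), the stem cell niche that lines the lateral ventricle, travel in chains along the rostral migratory stream to the olfactory bulb. SLIT proteins are secreted, repel cells that carry ROBO receptors, and are known in this tissue for their release by choroid plexus, septum and the neuroblasts themselves. Ephrins and Eph receptors are both held in the membrane, so that they signal between touching cells in either direction. NCAM1 carries chains of polysialic acid, added by the enzymes that *St8sia2* and *St8sia4* encode, and this modification lowers adhesion between neuroblasts as they slide along one another.

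The mice were 8 weeks old, on a 129 background that the study's methods give as 129-Elite, and 1 mouse gave 1 polyA RNA library from the dissected periventricular area of 1 hemisphere. In the *Lrig1* knockout (KO) mice both alleles carried CreERT2 in exon 1, which makes a constitutive loss of the gene in every cell, and wild-type (WT) littermates were the controls. The KO group held 4 mice (2 female and 2 male) and the WT group 4 mice (3 female and 1 male). KO 1, KO 3 and WT 2 were the male mice. The study compared the 2 genotypes to find signalling pathways that the loss of LRIG1 disturbs. Gene counts summed to between 47887437 and 61826150 in WT mice and between 52664769 and 74482334 in KO mice.

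*Lrig1* itself was measured at 45.6, 13.5, 41.4 and 34.3 CPM (counts scaled to library size, after TMM normalization) in WT 1 to WT 4, and at 1.41, 4.15, 1.17 and 2.96 in KO 1 to KO 4. Every KO mouse lay below every WT mouse, as the labels give them. The log2 fold change was -3.80 (SE 0.52), with an unadjusted p of 4.86e-05 and an adjusted p of 0.286 in the quasi-likelihood test of edgeR, with p-values adjusted over all genes tested by the method of Benjamini and Hochberg. At a threshold of 0.1 the targeted gene did not pass in the fit without covariates, whereas its adjusted p was 0.000176 with sex as a covariate in edgeR and 4.46e-08 in DESeq2 without covariates.

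The libraries came from whole tissue, so that fewer cells of a type and less RNA per cell cannot be told apart. *Dcx* and *Sox11*, which mark neuroblasts, were present in every mouse. *Dcx*, a microtubule-binding protein of migrating neurons, lay between 28.1 and 33.2 CPM in WT mice and between 24.6 and 30.6 CPM in KO mice. Summed CPM of 9 neuroblast markers ranged from 641 to 898 in WT and from 711 to 866 in KO mice. These were *Dcx*, *Sox11*, *Cd24a*, *Tubb3*, *Dlx1*, *Dlx2*, *Igfbpl1*, *Nrep* and *Stmn2*. Of the 9 markers, 6 were higher in KO mice and 3 lower in edgeR without covariates, with a median log2 fold change of 0.032. The sum was highest in WT 2, which also had the highest sum of cortical neuron markers. Whether other neurons added to this sum was not tested. No marker of the neuroblast list was at 0 in any mouse. The lists for neurons and glia outside the niche were not at 0 in any mouse either. Markers of striatal medium spiny neurons summed to between 1785 and 5464 CPM and those of oligodendrocytes to between 4681 and 6114 CPM. The guidance genes are also known from neurons and glia, and the measured levels belong to the tissue and not to neuroblasts alone.

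Summed markers of cortical excitatory neurons varied most between mice. They were 327, 1722, 66.1 and 214 CPM in WT 1 to WT 4, and 447, 37.7, 818 and 13.9 CPM in KO 1 to KO 4. The 3 male mice were above the 5 female mice, and WT 2 stood far above its group. Markers of septal and cholinergic neurons were lowest in WT 2 (40.7 CPM) and highest in KO 2 (277 CPM). Markers of choroid plexus, a source of SLIT proteins, were lowest in WT 2 (16.0 CPM), against 38.6 to 62.4 CPM in the other WT mice and 32.7 to 57.8 CPM in KO mice.

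Levels can be compared between genes only per length, as TPM (transcripts scaled for length and library size). *Ncam1* had the highest level, with a mean of 95.9 TPM over the 8 mice, followed by *Epha4* at 55.9 TPM, *Robo2* at 35.7 TPM and *Efnb2* at 33.8 TPM. *Ncam1* was above *Epha4*, *Epha4* above *Robo2*, *Efnb2* above *Robo1*, and *Slit1* above *St8sia4* in 8 of 8 mice each. *Robo2* was above *Efnb2* and *Robo1* (18.8 TPM) above *Slit1* (7.99 to 19.8 TPM over the mice) in 7 of 8 mice each. The lowest 4 genes were *St8sia4* at 5.66 TPM, *St8sia2* at 5.38 TPM, *Slit2* at 4.26 TPM and *Ephb2* at 3.76 TPM. Each of these was above the next in 5 of 8 mice, so their order did not exceed the spread between mice.

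No guidance gene passed the test of KO against WT mice without covariates. Of the 10, 0 had an adjusted p under 0.1 in edgeR, where 0.00566% of all genes tested (1 of 17669) did. Also 0 of 10 had an unadjusted p under 0.05 (1.88% of all genes), and in 0 of 10 were the groups free of overlap (1.53% of all genes). Log2 fold changes were above 0 for 5 genes and below 0 for 5, from -0.19 in *Epha4* to 0.29 in *St8sia4*. Their median was -0.0020, and that of all genes tested was -0.00094. By DESeq2 without covariates 0 of 10 passed as well (0.0619% of all genes tested). The plot of levels by mouse shows each value with the means.

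**Figure D1:**
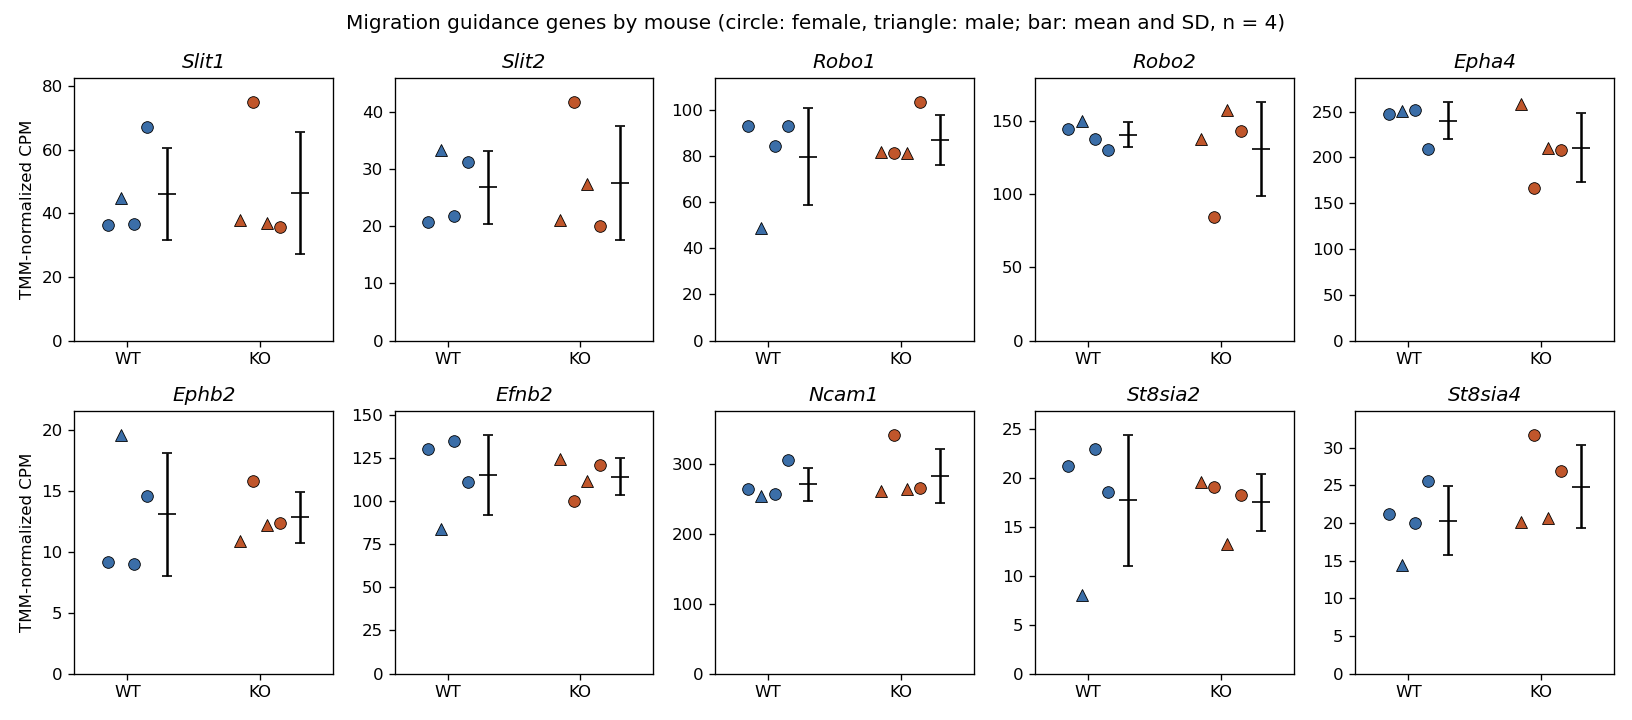
Levels of the 10 guidance genes in each mouse, as TMM-normalized CPM on axes that start at 0, with WT in blue, KO in orange, females as circles and males as triangles. Bars give the mean and SD of 4 mice, and the WT and KO values overlap in every panel, with WT 2 lowest for *Robo1*, *Efnb2*, *St8sia2* and *St8sia4* and KO 2 highest for *Slit1*, *Slit2*, *Ncam1* and *St8sia4*.

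*Slit1* and *Slit2* encode the secreted repellents. *Slit1* was at 36.4, 44.8, 36.7 and 67.1 CPM in WT 1 to WT 4, and at 38.1, 75.0, 36.9 and 35.7 CPM in KO 1 to KO 4. In each genotype 1 female mouse, WT 4 and KO 2, stood above the rest, and the means of 46.3 ± 14.5 (SD, n = 4) and 46.4 ± 19.1 CPM were close. KO minus WT was 0.0051 on the log2 scale (95% interval -0.65 to 0.66).

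*Slit2* was at 20.7, 33.3, 21.8 and 31.2 CPM in WT mice and at 21.0, 41.6, 27.4 and 19.9 CPM in KO mice. The highest and the lowest values were both KO mice, KO 2 and KO 4, and the log2 fold change was 0.040 (95% interval -0.55 to 0.63). For neither ligand could a change of up to about 0.55 in either direction be told from none, since the intervals reach that far.

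*Robo1* and *Robo2* encode the receptors through which SLIT proteins act. *Robo1* was at 93.0, 48.7, 84.1 and 92.7 CPM in WT mice and at 81.7, 81.3, 81.1 and 103 CPM in KO mice. WT 2 lay far below the other 7 mice, which ranged from 81.1 to 103 CPM. Its log2 fold change was 0.12 (95% interval -0.32 to 0.57), and without WT 2 it was -0.052.

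*Robo2* was at 144.7, 149.7, 137.6 and 130.3 CPM in WT mice and at 137.9, 84.3, 157 and 143 CPM in KO mice. Here KO 2 was the low mouse, and the other 3 KO mice lay within or above the WT range. Its log2 fold change was -0.11 (95% interval -0.49 to 0.28), and without KO 2 it was 0.056. In edgeR without covariates the low mouse thus decided the sign for each receptor, a WT male for *Robo1* and a KO female for *Robo2*. In DESeq2 with transcript lengths and sex the signs held with each mouse left out, in fits chosen after seeing the data. There *Robo1* ran from 0.066 to 0.39 and *Robo2* from -0.43 to -0.037. The adjusted p in these DESeq2 fits was 0.219 or more for *Robo1* and 0.459 or more for *Robo2*.

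*Epha4* encodes an Eph receptor that binds ephrins of both classes and is carried by glia and neurons as well as by neuroblasts. It was at 247, 251, 252 and 209.6 CPM in WT mice and at 258, 166, 209.9 and 208 CPM in KO mice. KO 1 was the highest of all mice, while the other 3 KO mice lay with WT 4 or below it. The log2 fold change of -0.19 (SE 0.13, 95% interval -0.49 to 0.11) had an unadjusted p of 0.187 and an adjusted p of 1.0 in edgeR. It was below 0 in each of the 8 fits that left out 1 mouse, from -0.30 without KO 1 to -0.090 without KO 2.

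*Ephb2* encodes a receptor for B-class ephrins and was the lowest of the 10 by TPM. It was at 9.14, 19.6, 9.02 and 14.6 CPM in WT mice and at 10.9, 15.9, 12.2 and 12.4 CPM in KO mice. The KO values all lay inside the WT range, whose top was WT 2, and the log2 fold change was -0.027 (95% interval -0.61 to 0.55). Among females alone it was 0.38, with an adjusted p of 0.850 in edgeR.

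*Efnb2* encodes a membrane ephrin that both EPHA4 and EPHB2 can bind. It was at 130.3, 83.7, 135 and 111 CPM in WT mice and at 124, 99.9, 112 and 121 CPM in KO mice. All 4 KO mice lay between WT 2 and WT 3, and the log2 fold change was -0.0091 (95% interval -0.34 to 0.33).

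*Ncam1* encodes the neural cell adhesion molecule, which neurons, glia and neuroblasts share. It was at 264, 254, 257 and 306 CPM in WT mice and at 262, 341, 264 and 265 CPM in KO mice. Both groups held 3 mice between 254 and 265 CPM and 1 higher female, WT 4 and KO 2, the same mice that led for *Slit1*. The log2 fold change was 0.065 (95% interval -0.18 to 0.32), the narrowest interval of the 10, and without KO 2 it was -0.037.

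*St8sia2* encodes a polysialyltransferase best known from young neurons. It was at 21.2, 8.05, 22.9 and 18.6 CPM in WT mice and at 19.5, 19.0, 13.2 and 18.2 CPM in KO mice. The 2 lowest mice were males, WT 2 and KO 3, which also had the highest sums of cortical markers. The log2 fold change was -0.015 (95% interval -0.68 to 0.65).

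*St8sia4* encodes the polysialyltransferase that persists most in the adult brain. It was at 21.2, 14.5, 19.9 and 25.5 CPM in WT mice and at 20.1, 31.7, 20.6 and 26.9 CPM in KO mice. The KO females KO 2 and KO 4 were the highest of all 8 mice, the KO males lay among the WT females, and WT 2 was the lowest. The means were 20.3 ± 4.57 CPM in WT and 24.8 ± 5.50 CPM in KO mice, and the log2 fold change of 0.29 (SE 0.20, 95% interval -0.16 to 0.74) had an unadjusted p of 0.181 and an adjusted p of 1.0 in edgeR.

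Since the groups differed in their share of males, *St8sia4* was also compared within sex. The KO females (31.7 and 26.9 CPM) were above the 3 WT females (19.9 to 25.5 CPM), and the KO males (20.1 and 20.6 CPM) were above the 1 WT male (14.5 CPM). The share of all genes tested that separated within sex like this was not counted. *St8sia4* already had the largest log2 fold change of the guidance genes before this comparison. With sex as a covariate the log2 fold change was 0.43 (SE 0.10), with an unadjusted p of 0.00283 and an adjusted p of 0.555 in edgeR. Among females alone it was 0.40, with an unadjusted p of 0.0247 and an adjusted p of 0.844 in edgeR.

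DESeq2 with sex as a covariate put *St8sia4* past the threshold, at a log2 fold change of 0.43 and an adjusted p of 0.0632, as the 1 guidance gene of 10. In that fit 1.13% of all genes tested passed in either direction and 0.445% passed as higher in KO. With transcript lengths added, the adjusted p was 0.0686 in DESeq2, where the shares were 1.13% and 0.456%. When each mouse was left out in turn of that last fit, *St8sia4* passed in 2 of 8 fits, those without WT 4 and without KO 4. In these, 1.49% and 1.83% of all genes tested passed. Its adjusted p in DESeq2 ran from 0.00708 to 0.631, the highest without WT 2. WT 2 was the only WT male, so that fit took the sex term from KO mice alone. *St8sia4* was above 0 in log2 fold change in all 32 fits made. These fits reuse the same mice and are not independent of one another. The size of the log2 fold change moved. It was 0.16 without WT 2, 0.15 without KO 2 and 0.17 with the cortical marker score as a covariate, and 0.60 (adjusted p 0.881 in edgeR) with sex and that score together. Cortical marker sums and sex moved together in these mice, and their part in the result was not tested.

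**Figure D2:**
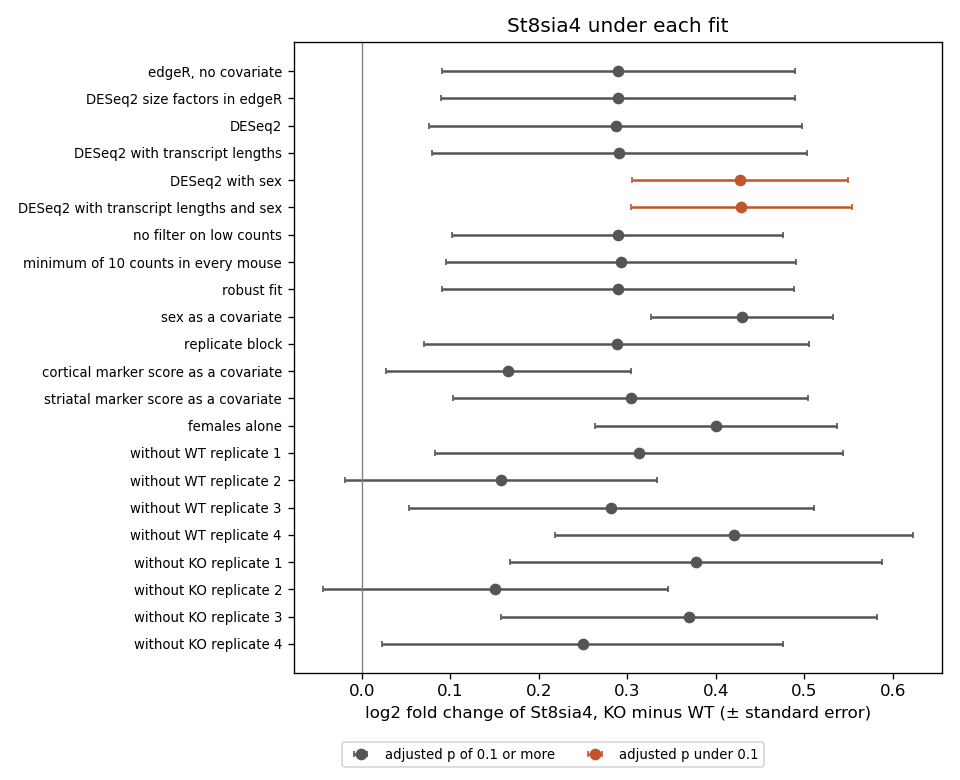
Log2 fold change of *St8sia4*, KO minus WT, with its standard error, in the fit without covariates, in 13 other fits of all mice or of females and with each mouse left out. All points lie above 0, the orange points are the 2 DESeq2 fits with sex, which have an adjusted p under 0.1, and the values without WT 2 and without KO 2 are the lowest, at 0.16 and 0.15.

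The same 3 fits in edgeR, without covariates, with sex as a covariate and among females alone, are drawn together for all 10 genes. With sex as a covariate *Robo1* had a log2 fold change of 0.28, *Epha4* of -0.25 and *St8sia2* of 0.23, and each had an adjusted p of 0.752 or more in edgeR. In these fits 0 of 10 genes passed, against 0.0113% of all genes tested with sex as a covariate and 0.0166% in females alone. With sex as a covariate *St8sia2* and *Efnb2* changed sign from the fit without covariates, in which both had been near 0.

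**Figure D3:**
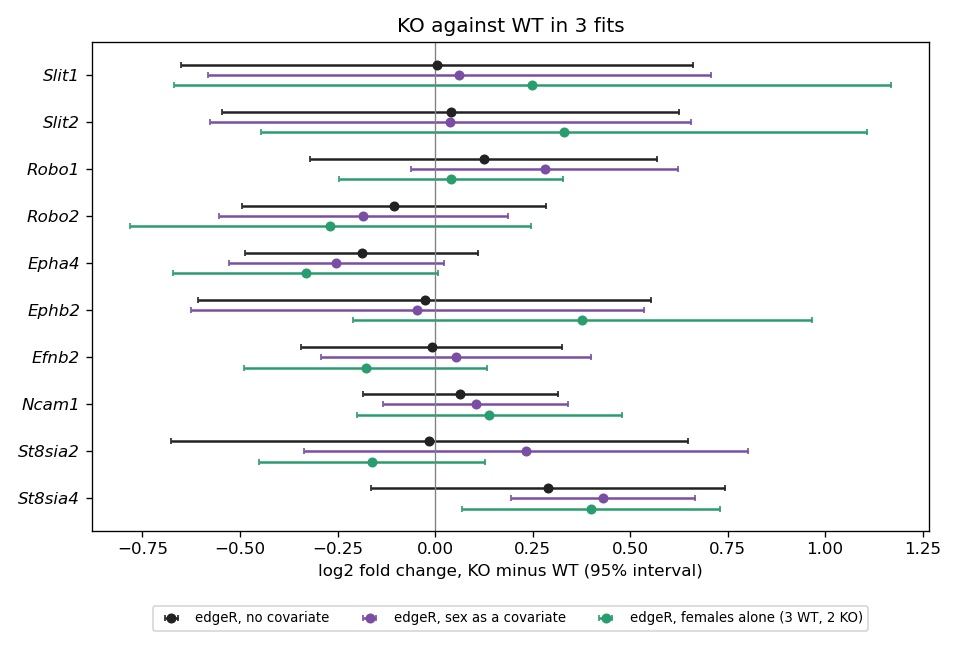
Log2 fold changes of the 10 guidance genes, KO minus WT, with 95% intervals that are not adjusted for the number of genes, from edgeR without covariates (black), with sex as a covariate (purple) and in females alone (green, 3 WT and 2 KO mice). The intervals span 0 for 9 genes in all 3 fits, and for *St8sia4* they lie above 0 with sex as a covariate and in females alone.

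The mice WT 2 and KO 2 held most of the extreme values. WT 2 was the lowest of the 8 mice for 5 of the 10 genes (*Robo1*, *Efnb2*, *Ncam1*, *St8sia2* and *St8sia4*) and the highest for *Ephb2*, and over all genes tested it was lowest for 20.5% and highest for 21.5%. KO 2 was the highest for 4 of the 10 (*Slit1*, *Slit2*, *Ncam1* and *St8sia4*) and the lowest for *Robo2* and *Epha4*, against 16.0% and 14.8% of all genes tested. The highest mouse exceeded the lowest by between 1.34 and 2.84 times over the 10 genes, with a median of 2.10, and by a median of 1.53 over the 17454 genes tested with a value above 0 in every mouse. WT 2 had the highest cortical sum and the lowest sums of choroid plexus, septal and striatal markers, and KO 2 the highest septal sum, and the part of these tissues in the guidance genes' values was not tested.

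**Figure D4:**
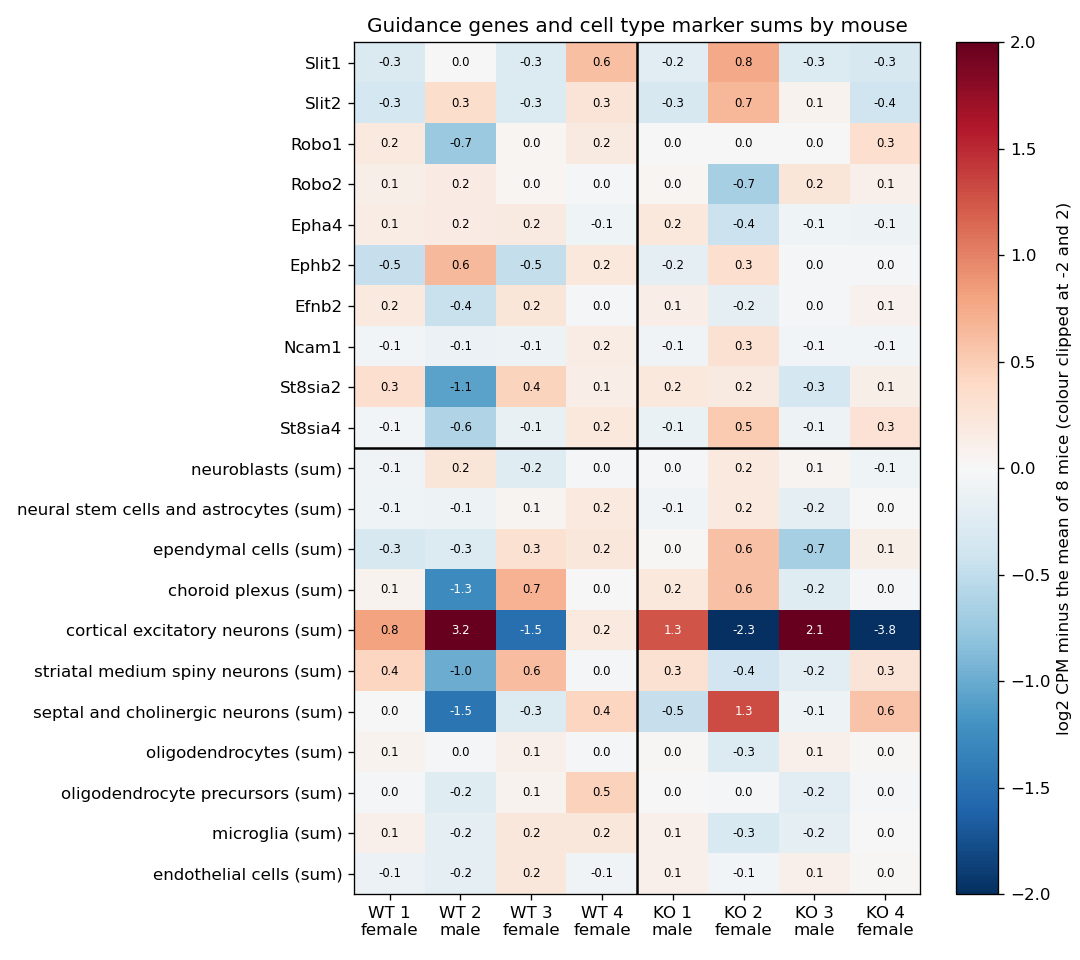
Guidance genes (above the line) and summed markers of 11 cell types (below it) in each mouse, as the log2 CPM minus its mean over the 8 mice, with blue for lower and red for higher values. WT 2 has low *Robo1*, *St8sia2* and *St8sia4* beside the highest cortical and the lowest septal, choroid plexus and striatal sums, and KO 2 has high *Slit1*, *Slit2* and *St8sia4* beside the highest septal sum.

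*Ncam1* is made in several forms, and the data split its reads between transcripts. The 3 main classes differ in coding sequence for the membrane anchor or for the part inside the cell, and the stretches that tell them apart are shown because the split between forms rests on such exons. They are read 5′ to 3′ from the Gencode M21 transcripts, on the minus strand of mouse GRCm38, with 20 bases of the exon before (and, for the small exon, of the exon after) in lower case and the start of the exon that differs in capitals.
Ncam1-201: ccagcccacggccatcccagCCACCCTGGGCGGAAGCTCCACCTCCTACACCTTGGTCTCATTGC
Ncam1-204: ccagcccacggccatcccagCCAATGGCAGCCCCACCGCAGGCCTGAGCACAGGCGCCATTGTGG
Ncam1-205: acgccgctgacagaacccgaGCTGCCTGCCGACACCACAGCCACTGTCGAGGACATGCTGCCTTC
Ncam1-205 small exon: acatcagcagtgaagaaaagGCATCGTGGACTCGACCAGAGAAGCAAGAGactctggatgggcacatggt
The capitals of Ncam1-201 (chr9:49517538-49517582) open its own last exon, which holds 74 coding bases and encodes the glycosylphosphatidylinositol-anchored form. Those of Ncam1-204 (chr9:49509868-49509912), an exon that Ncam1-202 shares, open the transmembrane part and tell transmembrane transcripts from Ncam1-201. No coding exon was in Ncam1-204 alone among the 4 main transcripts. Those of Ncam1-205 (chr9:49507609-49507653) open an exon of 801 bases, which adds the large cytoplasmic insert of the longest form. The small exon of 30 bases (chr9:49550540-49550569), known as VASE and shown whole, was in Ncam1-205 alone among the 4 main transcripts.

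Ncam1-201 gave 51.0, 46.1, 45.6 and 64.3 TPM in WT 1 to WT 4 and 49.2, 52.8, 48.3 and 49.6 TPM in KO 1 to KO 4. This anchored form made up 53.7 ± 3.74% of *Ncam1* in WT and 52.8 ± 4.66% in KO mice (SD, n = 4 each, exact permutation p = 0.771, two-sided). The groups overlapped, and WT 4 was the highest mouse.

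The transmembrane transcripts without the large insert, Ncam1-202 and Ncam1-204 together, gave 27.3 ± 5.06 TPM in WT and 27.1 ± 4.70 TPM in KO mice, which was 28.3% of *Ncam1* in each. Ncam1-205 gave 15.8, 18.5, 12.7 and 22.3 TPM in WT mice and 13.0, 25.0, 17.0 and 16.9 TPM in KO mice. KO 2 and WT 4 were the highest mice, as they were for the gene, and the share was 17.8 ± 1.60% in WT and 18.6 ± 2.95% in KO mice. Salmon shares reads among transcripts that overlap, and the error of that step was not used here.

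**Figure D5:**
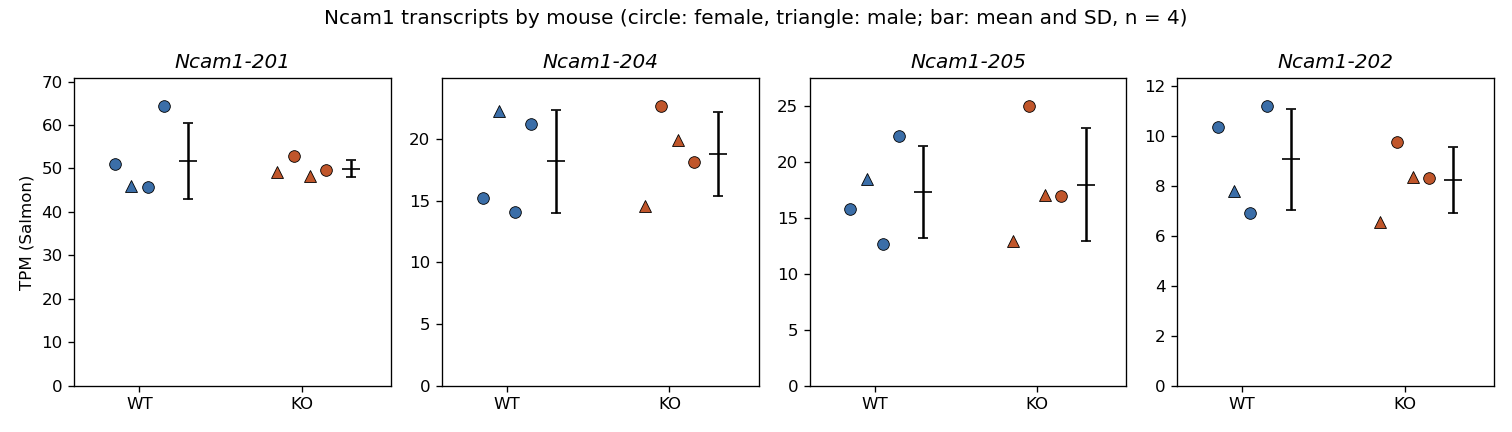
TPM of the 4 main *Ncam1* transcripts in each mouse, on axes that start at 0, with WT in blue, KO in orange, females as circles, males as triangles, and bars for the mean and SD of 4 mice. The groups overlap in every panel, and KO 2 is the highest KO mouse for each transcript.

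Over all guidance genes 79 transcripts were listed and 36 passed the filter on low counts. Of these 0 had an adjusted p under 0.1 in edgeR (0% of the 39966 transcripts tested), and 2 had an unadjusted p under 0.05 (2.04% of all transcripts tested). Robo1-207, a transcript that keeps an intron, ran from 0.052 to 0.084 TPM in WT and from 0.12 to 0.24 TPM in KO mice, without overlap (log2 fold change 1.28, unadjusted p 0.0144 and adjusted p 1.0 in edgeR). Epha4-207, a target of nonsense-mediated decay, ran from 0.088 to 0.67 TPM in WT and from 0.023 to 0.15 TPM in KO mice, with overlap (log2 fold change -1.90, unadjusted p 0.0418 and adjusted p 1.0 in edgeR). Both lay far below the main transcript of their gene. The share of all transcripts tested whose groups were free of overlap was not counted, so the separation of Robo1-207 has no background to set it against.

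The share of the leading transcript was compared for the 9 genes with at least 2 transcripts of 0.5 TPM or more, that is, all but *St8sia4*. Robo2-202 made up 40.4 ± 1.44% of *Robo2* in WT and 42.8 ± 1.11% in KO mice (exact permutation p = 0.0571). Ephb2-201 made up 67.1 ± 6.34% of *Ephb2* in WT and 58.2 ± 5.36% in KO mice (exact permutation p = 0.0857). No share passed the adjustment over the 9 genes (the smallest adjusted p was 0.386), and 4 mice against 4 allow no two-sided exact p below 0.0286.

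Around the 10 genes, 78 further genes of the same pathways were examined, of which 77 passed the filter on low counts. In edgeR without covariates 0 of 77 had an adjusted p under 0.1, and 1 had an unadjusted p under 0.05 (1.88% of all genes tested had one in either direction, and 1.08% had one and were lower in KO mice). That gene was *Tnc*, the matrix glycoprotein tenascin-C of the niche and the migratory stream. It was at 4.41, 6.02, 6.37 and 7.58 CPM in WT mice and at 4.28, 1.91, 3.37 and 4.10 CPM in KO mice. Every KO mouse lay below every WT mouse, where the groups were free of overlap in either direction for 1.53% of all genes tested. The log2 fold change was -0.84 (SE 0.26), with an unadjusted p of 0.0118 and an adjusted p of 1.0 in edgeR.

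The other Slit-Robo genes, 8 in all, had log2 fold changes below 0 in 8 of 8, from -1.32 to -0.047. Of all genes tested, 8883 of 17669 were below 0. In this list 0 of 8 had an unadjusted p under 0.05 in edgeR. The highest by TPM were *Nell2*, a secreted ligand of ROBO3, with a log2 fold change of -0.16, and *Srgap3*, a GTPase-activating protein that binds ROBO1, with -0.092. *Nell2* was highest in WT 2 (599.9 CPM), the mouse with the highest cortical sum, and lowest in KO 2 (284 CPM). Of the other Eph receptors 4 were above 0 and 7 below, with *Epha7* at 0.0034 and *Ephb1* at -0.13. Of the other ephrins 6 were above 0 and 1 below. *Efnb3*, at 182, 105, 203 and 181 CPM in WT and 201, 199, 151 and 193 CPM in KO mice, had a log2 fold change of 0.15, and like *Efnb2* it was lowest in WT 2. *Efna3* was at -0.065.

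Among 10 other genes for sialyltransferases and the supply of sialic acid, 7 were above 0 and 3 below. *St8sia3*, a sialyltransferase of the same family, had a log2 fold change of -0.030, and *Cmas*, the enzyme that activates sialic acid for transfer, of 0.13 (unadjusted p 0.143 in edgeR). Among 41 other cues of the rostral stream 19 were above 0 and 22 below, with *Ntrk2*, the BDNF receptor, at -0.00072 and *Cdk5*, a kinase that neuroblast migration needs, at -0.059. The medians of the 5 lists lay between -0.13 and 0.068, against -0.00094 over all genes tested.

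With sex as a covariate DESeq2 passed 5 of these 77 further genes, against 1.13% of all genes tested, all named here after their values were seen except *Tnc*. The adjusted p in DESeq2 was 0.0162 for *Ephb6* (log2 fold change -0.63), an Eph receptor without kinase activity, and 0.0974 for *Tnc* (-0.90). It was 0.0654 for *St8sia6* (1.08) and 0.0855 for *St8sia5* (-0.65), both sialyltransferases of the family of *St8sia4*, and 0.0902 for *Nrp2* (0.94), a semaphorin receptor. *Ephb6* and *St8sia5* were highest in WT 2, at 154 and 54.7 CPM, against at most 71.5 and 34.5 CPM in the other 7 mice, and *St8sia6* was highest in KO 2, at 9.33 CPM against at most 3.91 CPM. With each mouse left out in turn of the DESeq2 fit with lengths and sex, *Ephb6* passed in 6 of 8 fits. *Nrp2*, *St8sia6* and *Tnc* passed in 3 each and *St8sia5* in 2. Of these 5 genes, 0 passed without KO 3 or without WT 2, the only WT male, where sex was fitted from KO mice alone. The groups overlapped for all of these but *Tnc*, and the part of the cortical and septal tissue in these mice was not tested.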

How the data were processed

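PolyA RNA of 8 mice was sequenced, and the authors ran Salmon against Gencode M29 and deposited estimated counts per gene, without normalization, with estimated counts and TPM per transcript for each mouse as Salmon gave them. Their reads were converted with bcl2fastq 2.20. How transcripts were summed to genes is not given in the sources used here. For each of the 10 genes the gene counts equalled the sum of its transcripts.

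Counts were rounded and normalized by TMM, and KO was compared with WT by the quasi-likelihood test of edgeR 4.0.16 in R 4.3.3 after filterByExpr, without covariates, because no source states a covariate. The study used DESeq2, which was run as an alternative (version 1.42.0). At an adjusted p under 0.1, DESeq2 passed 12 genes without covariates, 201 with sex, and 213 with transcript lengths and sex. The count of genes that the study reported lay nearer to the DESeq2 fits with sex. Genes past an adjusted p of 0.1 (Benjamini-Hochberg, 17669 genes) were counted as called. The standard error is the log2 fold change over the square root of F. Transcripts were tested in the same way (39966). Shares of transcripts were compared by exact permutation tests in scipy 1.17.1. The edgeR step was tested on simulated counts, and the DESeq2 step was not.

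The 10 genes and all lists were chosen with earlier results of these data known. The rule for naming takes the 10 genes, *Lrig1*, in each list of further genes the 2 highest by mean TPM and those with an unadjusted p under 0.05, and markers that move with one of the 10. The marker scores used as covariates are mean log2 CPM with 1 CPM added.

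Sequences were read from Gencode M21 transcripts (GRCm38; the authors' release is later), after each transcript's length was checked against the deposited files. Identifiers of 94.8% of gene rows were named, and 97.4% of transcripts, with 99.16% of a mouse's reads at the lowest, were matched. Gene totals were 47887437 to 74482334 counts.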

Additional observations from a re-analysis of the deposited data

Results flagged for a closer look

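Values that stood apart from the other 3 mice of their group, by Dixon's test for groups of 4 at the 95% level, were found in 6 of 62 groups examined (9.68%), where chance gives about 1 in 20. *Slit1* in KO 2 was 75.0 CPM, with the next KO mouse at 38.1 CPM. *Ncam1* in the same mouse was 341 CPM, with the next KO mouse at 265 CPM. *Robo1* in KO 4 was 103 CPM, against 81.7 CPM in the next KO mouse. *Epha4* in WT 4 was low at 209.6 CPM, with the next WT mouse at 247 CPM. The summed cortical markers in WT 2 were 1722 CPM, against 327 CPM in the next WT mouse. The summed markers of oligodendrocyte precursors in KO 3 were low at 238 CPM, with the next KO mouse at 271 CPM.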

How the results depend on the processing

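The count of guidance genes past the threshold was 0 of 10 in every planned fit except 2, DESeq2 with sex and DESeq2 with transcript lengths and sex, which each passed 1, *St8sia4* (log2 fold change 0.43 in both). Leaving out each mouse of the latter fit gave 0 to 1, with *St8sia4* at 0.49 without WT 4 and 0.50 without KO 4 where it passed. This step, DESeq2 with lengths in females alone (0 of 10) and edgeR with sex and the cortical score (0 of 10) were chosen after seeing the data. Of the further genes those 2 DESeq2 fits passed 5 each (1.13% of all genes tested in each fit), and every other planned fit 0. With each mouse left out of the latter, 0 to 6 further genes passed, 0 without WT 2 and 0 without KO 3. At an adjusted p under 0.05 edgeR passed 0 of both.

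The signs of small log2 fold changes depended on the fit, and the cause was not tested. With DESeq2 and transcript lengths *Slit1* was -0.0097, *Slit2* -0.043 and *St8sia2* 0.0056. With DESeq2 and sex *Efnb2* was 0.051 and *St8sia2* 0.23, and with lengths as well *Slit2* was -0.042, *Efnb2* 0.052 and *St8sia2* 0.26. With sex in edgeR *Efnb2* was 0.053 and *St8sia2* 0.23. With the cortical score *Slit1* was -0.071 and *Ephb2* 0.081, and with the striatal score *Slit1* was -0.022, *Ephb2* 0.034, *Efnb2* 0.012 and *St8sia2* 0.093. In females alone *Ephb2* was 0.38.

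With a replicate block the count was 0 of 10, with *Slit1* at -0.021, *Ephb2* at 0.037, *Efnb2* at 0.0100 and *St8sia2* at 0.064. Deviations of same-numbered mice correlated at 0.086, -0.24, -0.40 and 0.27, which showed no pairing by number. So few values cannot exclude a pairing.

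With 1 mouse left out of the edgeR fit without covariates, *Slit1* ran from -0.33 to 0.24 and *Slit2* from -0.23 to 0.17. *Robo1* ran from -0.052 to 0.21 and *Robo2* from -0.21 to 0.056. *Ephb2* ran from -0.17 to 0.23, *Efnb2* from -0.14 to 0.076, *Ncam1* from -0.037 to 0.13 and *St8sia2* from -0.26 to 0.13. *Epha4* and *St8sia4* kept their sign in each of these fits. The lowest count of any of the 10 genes in a mouse was 423 (*Ephb2* in WT 3).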
